A study of Capra hircus with 29 samples.

Results

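Translation initiation factors are the proteins that bring a ribosome to an mRNA and set it on the start codon. They were taken here from the gene table of goat oocytes as every gene row whose symbol begins with EIF and a factor number from 1 to 6, leaving out the EIF2AK kinases. This gave 59 of the 21343 gene rows, with 47 different symbols: 10 rows of EIF1, 12 of EIF2, 14 of EIF3, 18 of EIF4, 4 of EIF5 and 1 of EIF6. RNA was sequenced from oocytes of Ji'ning grey goats (Capra hircus), one population of high and one of low fertility, sorted by the size of the follicle they came from. The question behind the design was how oocytes of prolific and less prolific goats differ at each follicle size. In the high fertility population, HLO stands for oocytes of large follicles, HMO of medium and HSO of small ones, and LLO, LMO and LSO stand for the same follicle sizes in the low fertility population. There were 5 samples per group and 4 of HSO (replicates 1, 3, 4 and 5), 29 in all, with no treatment, and the ages of the goats were not given. By the study's methods, the oocytes of each follicle size were divided into samples of a few oocytes each, after pooling over goats, which is stated for the high fertility population alone. The goats behind a sample were not given, so the p-values here measure only the spread between these samples, which for high fertility are portions of pools.

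Initiation starts when the small ribosomal subunit, loaded with the initiator tRNA by EIF2 and held open by EIF1, EIF1A and EIF3, is recruited to the capped end of an mRNA by EIF4E, EIF4G and EIF4A. EIF5 and EIF5B then release the factors and join the large subunit. A growing oocyte stores mRNA and, once transcription stops, controls its proteins largely through which stored mRNAs are translated.

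The authors deposited FPKM values (fragment counts scaled by the length of the transcript and the mapped fragments of the sample), which put different genes on a scale per length. By the study's methods, oocyte mRNA was enriched on oligo(dT) beads, from a few oocytes per sample. How evenly the reads covered each transcript was not tested. An order of levels between genes, or a low value of a gene, therefore holds for these FPKM only. Whole reads could not be recovered from the FPKM values and their table does not give the depth behind each value, so a gene without reads is described as listed at 0. The study's supplement names tables of sequence counts and of mapping, which were not used for the levels and tests here. Of the 21343 gene rows, 4171 were listed at 0 in every sample. The FPKM of a sample summed to 222697 in LMO replicate 2 and to between 347806 and 490048 in the others. From 6646 (LLO replicate 2) to 8689 (LLO replicate 4) genes were above 0.5 FPKM.

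A few libraries stood apart over all genes. The median Pearson correlation of a sample with the other samples, over the log2(FPKM + 1) of 9692 genes, was 0.809 for LLO replicate 5, 0.811 for LLO replicate 2 and 0.838 for LMO replicate 2, and 0.869 or more for the other samples. The 3 samples with the lowest values are all of the low fertility population, and the members called at an unadjusted p under 0.05 are given with and without them. Genes that mark oocytes were present: 10 of 11 listed markers had a row, ZP3, a protein of the egg coat, was the most abundant at 1406 ± 1130.2 FPKM (SD, n = 29), and the summed level of the list ran from 432 in LLO replicate 2 to 9099.8 in HSO replicate 5 with a median of 2457. Of the other markers, OOSP1 had no row and 1 of the 2 DAZL rows was listed at 0 throughout.

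Markers of other cells were low. For granulosa cells 8 of 10 listed genes had a row, their sum ran from 0.169 (LLO replicate 5) to 7.82 FPKM (LMO replicate 5) with a median of 0.783, INHBA was the most abundant at 0.677 ± 1.28 (SD, n = 29), and AMH was listed at 0 in every sample. For theca and stroma 4 of 6 had a row, with sums from 2.94 (LSO replicate 1) to 18.9 FPKM (LLO replicate 1) and DCN the most abundant at 7.95 ± 4.59 (SD, n = 29). For leukocytes 5 of 6 had a row, the sum was at most 0.672 FPKM, CD68 led with 0.237 ± 0.177 (SD, n = 29), and CD14 and TYROBP were listed at 0 throughout. Of 3 red blood cell markers, 1 had a row, ALAS2, with at most 0.464 FPKM. The 13 mitochondrially encoded genes all had a row, COX3 the most abundant at 315 ± 394 FPKM (SD, n = 29), and their sum ran from 11.2 (LLO replicate 4) to 5919 (HSO replicate 3) with a median of 424. The part of any of these RNAs in the levels of initiation factors was not tested.

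The initiation factors ranged from rows listed at 0 in every sample to some of the most abundant mRNAs of the table. Of the 59 rows, 35 were above 0.5 FPKM in all 29 samples, 13 in some and 11 in none, and 7 of the 11 were listed at 0 throughout. The 11 were EIF2B5, EIF4G1, 4 of the EIF1 rows and further copies of EIF2B1, EIF3F, EIF3M, EIF4B and EIF4E. The mean was above 100 FPKM for 6 genes, namely EIF4E, EIF3M, EIF1, EIF3I, EIF3H and EIF6. It was between 10 and 100 for 22 rows, between 1 and 10 for 12 and at most 1 for 19. There were 7 symbols on more than 1 row, 19 rows together, and values for these are uncertain, because a symbol alone does not tell its rows apart; for each of them the row with a gene description is the one named here unless stated, and the copies without a description were at most 7.08 FPKM in any sample. EIF4E was the most abundant factor in 19 of the 29 samples, EIF1 in 5, EIF3M in 3 and EIF5B in 2 (LLO replicate 2 and LMO replicate 2).

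**Figure D1:**
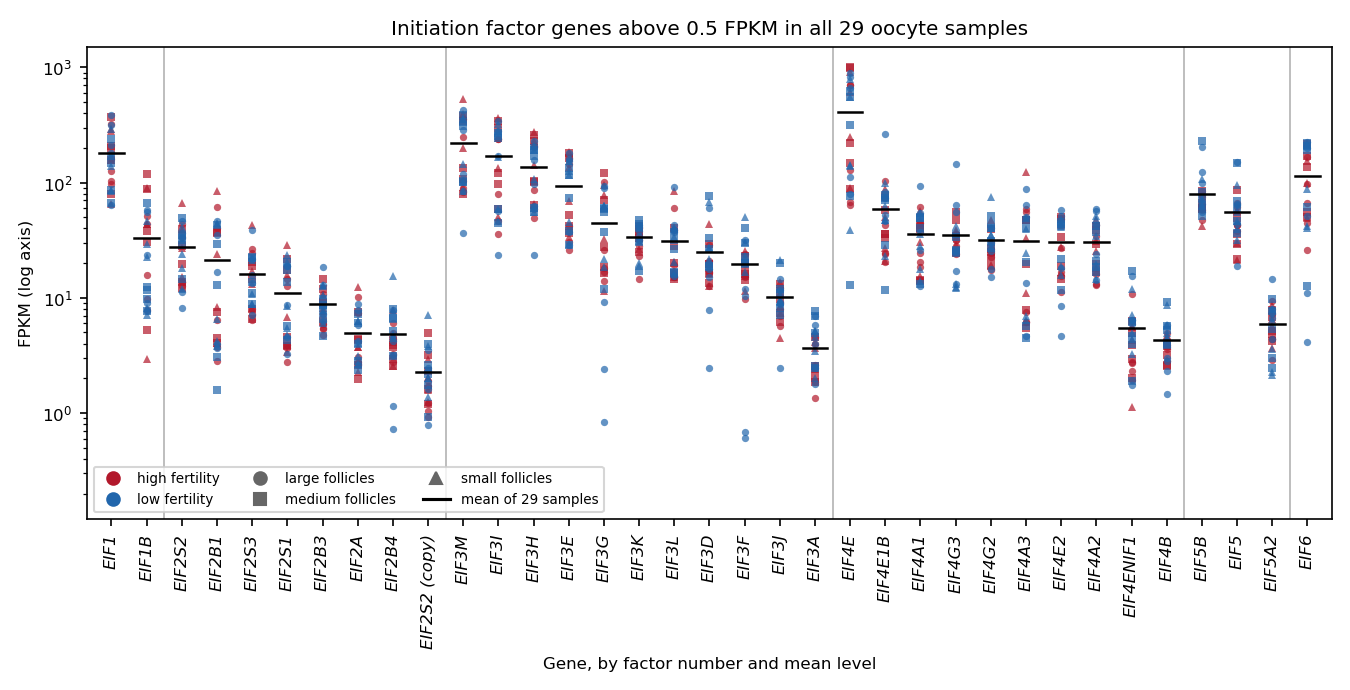
FPKM on a log axis of the 35 initiation factor rows above 0.5 FPKM in all 29 samples, by factor number, with a point per sample (colour for the population, shape for follicle size) and a bar at the mean. EIF4E had the highest mean, 406 FPKM, and spanned 12.9 to 1015 FPKM.

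All members together summed to 2053 ± 1006 (SD, n = 29) FPKM per sample, from 872 in HSO replicate 3 to 3884 in HSO replicate 5. That was 0.492 ± 0.224 (SD, n = 29) percent of all FPKM, with 0.198 in LLO replicate 3 and 0.869 in HSO replicate 5. By group the sum was 1688 ± 1039.8 (SD, n = 5) in HLO against 2299.6 ± 1152 (SD, n = 5) in LLO. It was 2139 ± 1216 (SD, n = 5) in HMO against 1991 ± 836 (SD, n = 5) in LMO, and 2315 ± 1322 (SD, n = 4) in HSO against 1936 ± 919 (SD, n = 5) in LSO. The samples of every group spread over much of the whole range, so that the 6 groups overlapped. In pools of cells, fewer cells of a type and less RNA per cell cannot be told apart.

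EIF1, which keeps the scanning ribosome from starting at the wrong codon, was 1 of the 6 most abundant members (ENSCHIG00000019997; 181 ± 95.3 (SD, n = 29) FPKM). In order of replicate number, as for all values that follow, EIF1 was at 323, 161, 104, 127 and 98.0 FPKM in HLO and 384, 179.6, 64.0, 317 and 210.3 in LLO. EIF1 in medium follicles was at 372, 156, 79.0, 206 and 198 FPKM in HMO and 239.8, 168, 66.6, 86.2 and 148 in LMO. EIF1 in small follicles was at 278, 65.7, 158 and 291 FPKM in HSO and 293, 172, 84.1, 85.5 and 138 in LSO. The groups overlapped at each follicle size, and replicate 1 was the highest sample in every group but HSO, where replicate 5 was. Its paralog EIF1B (ENSCHIG00000022430) was at 33.3 ± 29.7 (SD, n = 29) FPKM. EIF1B in large follicles was at 51.5, 43.6, 9.70, 15.8 and 7.90 FPKM in HLO and 57.7, 23.5, 7.75, 56.0 and 9.01 in LLO. EIF1B in medium follicles was at 88.2, 38.1, 5.24, 119 and 30.4 FPKM in HMO and 66.7, 11.8, 7.66, 9.77 and 12.4 in LMO. HMO replicates 1 and 4 were above every LMO sample and HMO replicate 3 was below all of them, so these groups also overlapped. EIF1B in small follicles was at 89.8, 2.92, 44.1 and 43.2 FPKM in HSO and 46.2, 29.5, 7.13, 8.18 and 22.6 in LSO. The populations overlapped at each follicle size. EIF1B was below EIF1 in all 29 samples, with a log2 ratio of FPKM + 1 of -2.77 ± 0.79 (SD, n = 29). EIF1AX, which works beside EIF1 in scanning, was low at 1.62 ± 0.514 (SD, n = 29) FPKM, and EIF1AD, a protein with an EIF1A-like domain, was at 12.05 ± 10.9 (SD, n = 29) FPKM with LLO replicate 2 listed at 0. Of the 6 EIF1 rows without a description, 4 were listed at 0 in every sample.

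EIF2 binds the initiator tRNA and GTP, and EIF2B is the enzyme that recharges it with GTP. The subunits of EIF2 were of unequal level: the beta subunit EIF2S2 (ENSCHIG00000026317) was at 27.6 ± 14.3 (SD, n = 29) FPKM, the gamma subunit EIF2S3 at 16.2 ± 9.22 (SD, n = 29) and the alpha subunit EIF2S1, whose phosphorylation shuts EIF2 down, at 11.1 ± 7.71 (SD, n = 29). EIF2S2 in large follicles was at 43.7, 13.6, 13.7, 12.5 and 33.8 FPKM in HLO and 46.7, 33.2, 11.2, 8.08 and 36.3 in LLO. EIF2S2 in medium follicles was at 28.4, 19.6, 13.7, 12.2 and 39.2 FPKM in HMO and 32.8, 28.7, 14.5, 35.4 and 49.5 in LMO. EIF2S2 in small follicles was at 38.5, 15.2, 26.9 and 66.2 FPKM in HSO and 24.0, 18.0, 11.99, 31.6 and 41.1 in LSO. The lowest sample was LLO replicate 4 and the highest HSO replicate 5, and at each follicle size the populations overlapped. A second EIF2S2 row without a description (ENSCHIG00000011707) was at 2.29 ± 1.36 FPKM (SD, n = 29).

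The levels of the 5 EIF2B subunits were far apart. EIF2B1 (ENSCHIG00000015301), the alpha subunit of the regulatory core, was at 21.4 ± 21.6 (SD, n = 29) FPKM, and EIF2B3, EIF2B4 and EIF2B2 followed at 8.89 ± 3.26 (SD, n = 29), 4.84 ± 2.82 (SD, n = 29) and 3.49 ± 2.74 (SD, n = 29). EIF2B5, the catalytic subunit, was above 0.5 FPKM in no sample, with 0.120 ± 0.104 (SD, n = 29) FPKM and 0.326 at most. EIF2B1 in large follicles was at 40.3, 2.81, 6.44, 3.71 and 60.8 FPKM in HLO and 46.1, 3.95, 3.68, 34.98 and 16.6 in LLO. EIF2B1 in medium follicles was at 36.6, 4.03, 4.52, 7.51 and 37.4 FPKM in HMO and 13.0, 1.60, 3.05, 29.4 and 42.5 in LMO. EIF2B1 in small follicles was at 24.2, 4.01, 8.36 and 84.1 FPKM in HSO and 6.55, 3.82, 4.20, 43.4 and 44.1 in LSO. EIF2B1 was either under 10 or well above it in most samples, with both kinds in every group: replicates 2 and 3 were under 10 FPKM in each group that holds them, and replicate 5 was above 10 in all of them. EIF2A, which can bring in initiator tRNA by another route, was at 4.93 ± 2.62 (SD, n = 29) FPKM, and EIF2D, which acts in ribosome recycling and reinitiation, at 1.13 ± 0.604 (SD, n = 29).

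EIF3 is the scaffold of many subunits that links the small ribosomal subunit to the mRNA. Its 12 subunits with a row under an EIF3 symbol fell into a wide order of levels. EIF3M (ENSCHIG00000012027) was at 219.9 ± 141 (SD, n = 29) FPKM, EIF3I (ENSCHIG00000021616) at 171 ± 114 (SD, n = 29) and EIF3H at 136 ± 75.4 (SD, n = 29). EIF3E followed at 94.0 ± 59.2 (SD, n = 29), and EIF3G, EIF3K, EIF3L, EIF3D, EIF3F and EIF3J had means from 44.6 down to 10.1 FPKM. The large subunits EIF3A and EIF3B, around which the others assemble, were the lowest, with EIF3A (ENSCHIG00000016597) at 3.67 ± 1.71 (SD, n = 29) and EIF3B at 0.705 ± 0.529 (SD, n = 29) FPKM. The log2 ratio of EIF3A to EIF3M was -5.33 ± 0.97 (SD, n = 29) and below 0 in all 29 samples; this ratio was chosen after the values were seen. No row carried the symbol EIF3C, but a row described as subunit C under another symbol (LOC102182187) was at 9.88 ± 4.63 (SD, n = 29) FPKM.

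EIF3M in large follicles was at 358, 82.8, 104, 89.9 and 248 FPKM in HLO and 427, 36.5, 84.2, 286 and 119 in LLO. EIF3M in medium follicles was at 377, 133, 78.8, 108 and 342 FPKM in HMO and 307, 103, 102, 337 and 385 in LMO. EIF3M in small follicles was at 395, 91.8, 199.8 and 533 FPKM in HSO and 146, 83.9, 102, 357 and 359.7 in LSO. Replicates 1 and 5 were high and replicates 2 and 3 low in nearly all groups, LLO replicate 5 and LSO replicate 1 being lower than the other samples of their number, and the populations overlapped. EIF3I in large follicles was at 239, 46.6, 79.6, 36.0 and 241 FPKM in HLO and 279, 23.7, 56.2, 344 and 169 in LLO. EIF3I in medium follicles was at 341, 96.7, 59.3, 120.1 and 298 FPKM in HMO and 242, 44.1, 59.1, 268 and 252 in LMO. EIF3I in small follicles was at 245, 50.2, 134 and 364 FPKM in HSO and 167, 46.1, 58.4, 323 and 283 in LSO. EIF3I, a subunit built as a propeller of repeats, had its lowest value in LLO replicate 2, as EIF3M did, and both were highest in HSO replicate 5. EIF3K varied less than any other member above 0.5 FPKM in all samples, with 14.6 to 47.5 FPKM, a 3.25-fold range.

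EIF3F, a subunit of the core that also holds EIF3M, and EIF3G, an RNA-binding subunit outside it, were set apart by samples of LLO; both were chosen after their values were seen. EIF3F in large follicles was at 24.0, 15.6, 15.2, 19.5 and 9.82 FPKM in HLO and 10.4, 0.612, 11.9, 31.5 and 0.681 in LLO. EIF3F in medium follicles was at 14.2, 23.0, 20.1, 17.2 and 16.0 FPKM in HMO and 22.5, 40.5, 20.1, 29.8 and 19.5 in LMO. EIF3F in small follicles was at 16.0, 15.6, 25.3 and 11.5 FPKM in HSO and 49.8, 30.7, 23.0, 16.7 and 20.4 in LSO. LLO replicates 2 and 5 were under 1 FPKM and every other sample was above 9, so that LLO held both the lowest values and, in replicate 4, a value above all of HLO. EIF3G was also lowest in these samples, with 0.837 FPKM in LLO replicate 2 and 2.41 in LLO replicate 5, against up to 120.3 in HMO replicate 1.

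The EIF4 group holds the proteins that find the cap and unwind the mRNA. EIF4E (ENSCHIG00000009550), the cap-binding protein, had the highest mean of all members, 406 ± 341 (SD, n = 29) FPKM, above 99.1 percent of the gene rows of the table. EIF4E in large follicles was at 697, 67.6, 127, 63.3 and 698 FPKM in HLO and 886, 112, 79.9, 656 and 818 in LLO. EIF4E in medium follicles was at 1015, 87.9, 149, 222 and 988 FPKM in HMO and 318, 12.9, 77.1, 617 and 556 in LMO. EIF4E in small follicles was at 614, 89.3, 249.6 and 906 FPKM in HSO and 139, 39.0, 143, 798.6 and 552 in LSO. Each group held a sample of 617 FPKM or more and a sample of 89.3 or less, so the populations overlapped at each follicle size, and the highest sample was 78.7-fold above the lowest. EIF4E made up from 0.976 percent (LMO replicate 2) to 30.6 percent (HMO replicate 5) of the summed FPKM of the initiation factors.

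EIF4E1B (ENSCHIG00000006321), a relative of EIF4E that is made mainly in oocytes, came next in this group by mean with 58.6 ± 47.2 (SD, n = 29) FPKM. EIF4E1B in large follicles was at 42.8, 20.3, 24.7, 23.8 and 102 FPKM in HLO and 72.9, 51.9, 46.7, 83.2 and 266 in LLO. EIF4E1B in medium follicles was at 74.7, 32.9, 35.4, 35.6 and 58.0 FPKM in HMO and 72.9, 11.7, 28.8, 71.0 and 78.3 in LMO. EIF4E1B in small follicles was at 50.2, 21.0, 26.9 and 88.4 FPKM in HSO and 47.5, 23.1, 47.4, 62.7 and 99.0 in LSO. LLO replicate 5 was above every other sample, and HLO replicate 5 was above 4 of the 5 LLO samples, so these groups overlapped. EIF4E1B was below EIF4E in all 29 samples, with a log2 ratio of -2.33 ± 1.07 (SD, n = 29), a ratio chosen after the values were seen. EIF4E2, a cap-binding relative that can block initiation, was also below EIF4E in all 29 samples, with 30.7 ± 16.0 (SD, n = 29) FPKM and a log2 ratio of -3.18 ± 1.25 (SD, n = 29). EIF4E3, the remaining relative, was at 0.287 ± 0.342 (SD, n = 29) FPKM.

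The inhibitors that hold EIF4E away from EIF4G were low. EIF4EBP1 had 25 samples listed at 0 and a highest value of 1.031 FPKM in LSO replicate 1, EIF4EBP3 was listed at 0 in 21, and EIF4EBP2, the most abundant of them, was at 0.971 ± 0.704 (SD, n = 29) FPKM. The log2 ratio of FPKM + 1 of EIF4EBP2 to EIF4EBP1 was 0.81 ± 0.57 (SD, n = 29) and above 0 in 25 samples. EIF4ENIF1, which binds EIF4E and keeps mRNAs silent in granules, was higher, at 5.47 ± 3.89 (SD, n = 29) FPKM.

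Of the scaffolds, EIF4G1, the main form of most tissues, was above 0.5 FPKM in no sample, at 0.147 ± 0.113 (SD, n = 29) FPKM with a highest value of 0.460, and was listed at 0 in none. EIF4G3 was at 34.9 ± 24.9 (SD, n = 29) FPKM and EIF4G2, which lacks the site that binds EIF4E, at 31.5 ± 12.5 (SD, n = 29). Both exceeded EIF4G1 in all 29 samples, with log2 ratios of FPKM + 1 of 4.77 ± 0.77 (SD, n = 29) and 4.74 ± 0.43 (SD, n = 29). EIF4G3 in large follicles was at 24.0, 31.9, 35.9, 32.0 and 28.1 FPKM in HLO and 13.1, 145, 55.6, 16.9 and 64.5 in LLO. EIF4G3 in medium follicles was at 34.1, 47.2, 55.5, 25.1 and 24.5 FPKM in HMO and 25.5, 26.1, 35.9, 33.8 and 25.2 in LMO. EIF4G3 in small follicles was at 36.2, 38.6, 28.7 and 25.4 FPKM in HSO and 12.4, 41.6, 13.2, 12.1 and 24.5 in LSO. LLO replicate 2 stood above all other samples, LLO replicate 1 and LSO replicates 1, 3 and 4 were near the bottom, and the populations overlapped. EIF4G3 was above EIF4G2 in 16 samples, and the log2 ratio of this pair, chosen after the values were seen, ran from -2.51 in LSO replicate 1 to 2.46 in LLO replicate 2.

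The helicases EIF4A1 and EIF4A2, which unwind the leader of the mRNA, were near each other at 36.1 ± 19.0 (SD, n = 29) and 30.6 ± 14.2 (SD, n = 29) FPKM, and EIF4A2 was above EIF4A1 in 9 samples, with a log2 ratio of -0.19 ± 0.62 (SD, n = 29). EIF4A3, whose place is in the exon junction complex and not in initiation, was at 31.0 ± 29.1 (SD, n = 29) FPKM and varied more. Its log2 ratio to EIF4A1 was -0.64 ± 0.95 (SD, n = 29), from -3.23 in LMO replicate 2 to 1.09 in HSO replicate 5. The helicase partners EIF4B and EIF4H were low, at 4.27 ± 1.70 (SD, n = 29) and 0.865 ± 0.559 (SD, n = 29) FPKM.

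EIF5B (ENSCHIG00000027106), the GTPase that joins the ribosomal subunits, led the EIF5 group with 80.2 ± 41.6 (SD, n = 29) FPKM. EIF5B in large follicles was at 77.5, 58.2, 47.5, 74.4 and 83.8 FPKM in HLO and 56.1, 204, 64.7, 99.8 and 123 in LLO. EIF5B in medium follicles was at 60.2, 85.0, 59.2, 58.7 and 66.8 FPKM in HMO and 51.6, 229, 60.7, 72.3 and 83.4 in LMO. EIF5B in small follicles was at 60.8, 61.4, 68.9 and 42.2 FPKM in HSO and 108, 74.0, 63.3, 62.4 and 71.1 in LSO. LLO replicate 2 and LMO replicate 2 were above 200 FPKM and the next sample was LLO replicate 5, all in the low fertility population, and samples of both populations lay from 42.2 to 108 FPKM. EIF5 (ENSCHIG00000021283), which makes EIF2 hydrolyse its GTP at the start codon, was at 55.4 ± 31.6 (SD, n = 29) FPKM. EIF5 in large follicles was at 42.5, 60.8, 42.9, 66.5 and 38.3 FPKM in HLO and 19.0, 151, 64.8, 43.7 and 63.9 in LLO. EIF5 in medium follicles was at 21.9, 85.6, 49.0, 29.2 and 36.0 FPKM in HMO and 36.6, 147, 59.2, 68.6 and 46.2 in LMO. EIF5 in small follicles was at 29.8, 57.3, 56.4 and 21.3 FPKM in HSO and 55.7, 95.5, 46.7, 31.7 and 39.6 in LSO. Its highest values were again those of LLO replicate 2 and LMO replicate 2, and the populations overlapped at each follicle size. EIF5A, which despite its name helps the ribosome through difficult stretches of elongation, was at 4.12 ± 3.34 (SD, n = 29) FPKM and was listed at 0 in LMO replicate 2. Its paralog EIF5A2 was at 5.98 ± 2.72 (SD, n = 29) FPKM and above EIF5A in 23 samples, with a log2 ratio of FPKM + 1 of 0.71 ± 0.87 (SD, n = 29).

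EIF6 (ENSCHIG00000011324), which keeps the large subunit from joining too early and helps build it, was at 115 ± 78.4 (SD, n = 29) FPKM. EIF6 in large follicles was at 167, 44.96, 66.3, 26.0 and 96.9 FPKM in HLO and 201, 4.12, 51.7, 223 and 10.999 in LLO. EIF6 in medium follicles was at 215, 55.6, 50.4, 136 and 170.1 FPKM in HMO and 209, 12.6, 61.6, 222 and 191 in LMO. EIF6 in small follicles was at 154, 48.9, 99.3 and 219 FPKM in HSO and 88.7, 42.1, 40.2, 211 and 213 in LSO. LLO replicates 2 and 5 and LMO replicate 2 were under 15 FPKM and all other samples above 25, and each group also held at least 1 sample of 167 FPKM or more, so the groups overlapped.

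**Figure D2:**
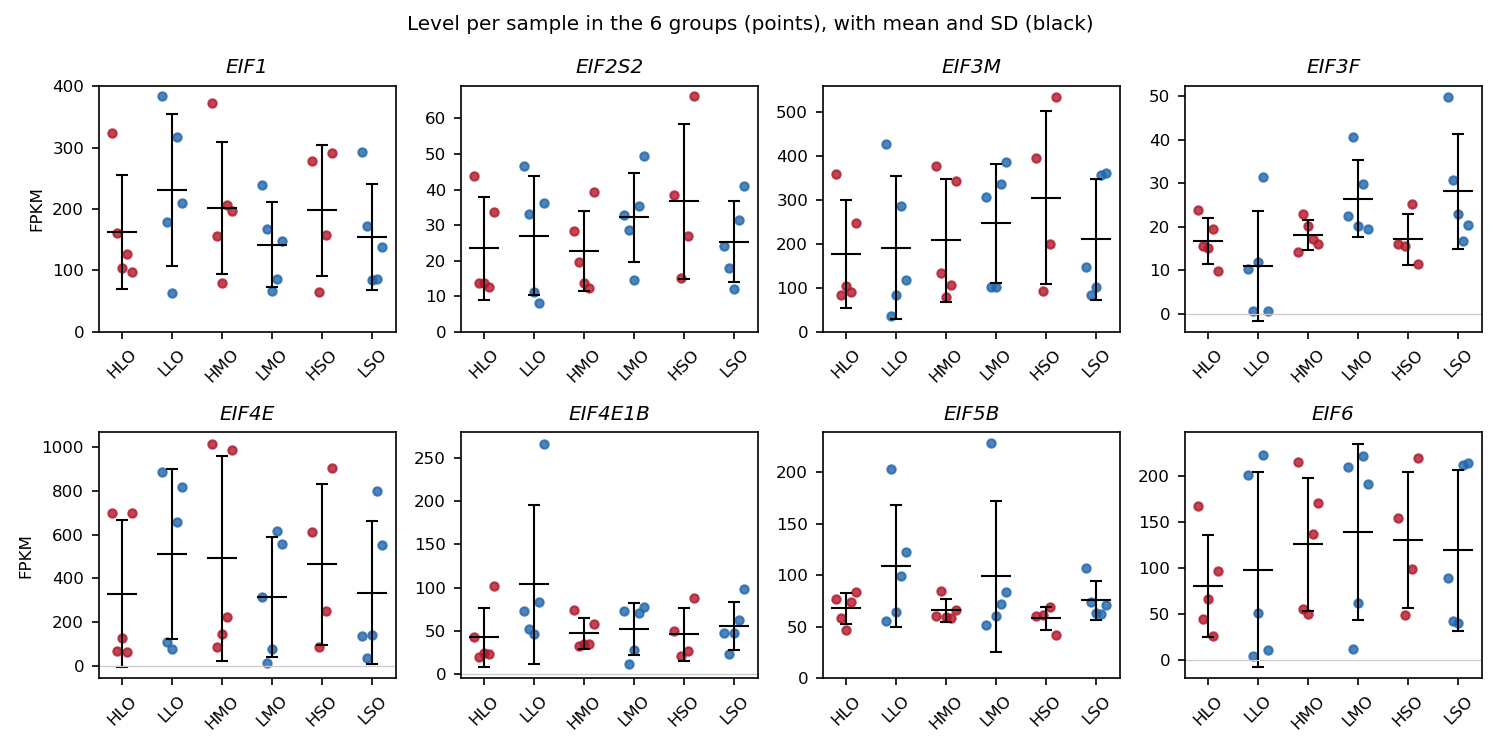
FPKM per sample of EIF1, EIF2S2, EIF3M, EIF3F, EIF4E, EIF4E1B, EIF5B and EIF6 in the 6 groups, with red for the high and blue for the low fertility population and black lines for the mean and SD. The samples of paired groups overlap in every panel, and LLO replicate 5 has the highest EIF4E1B value, 266 FPKM.

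The populations were compared at each follicle size on log2(FPKM + 1), a scale that understates the difference of genes with low FPKM, with limma's moderated test for every gene that exceeded 0.5 FPKM in 4 or more of those samples. In large follicles no member differed between HLO and LLO by this test. Of 43 members tested, 0 had an unadjusted p under 0.05, against 4.14% of 8328 genes, 0 passed after Benjamini-Hochberg adjustment over all genes (0.00%), and 0 had groups without overlap (0.432%). With the replicate number as a block 2 had an unadjusted p under 0.05, EIF3F and EIF4E1B (8.21% of all genes). With array weights 7 did (16.5% of all genes). No member passed after adjustment in these fits. The median log2 fold change, high minus low, was -0.22 over the members and -0.09 over all genes, with 30 members below 0 and 13 above. Leaving out 1 sample at a time took the median of the members from -0.55 (without LLO replicate 3; all genes -0.20) to -0.11 (without HLO replicate 4; all genes -0.03), and it was -0.54 with array weights (all genes -0.26), -0.12 with median-of-ratios factors (all genes 0.00) and -0.19 with quantile normalization (all genes -0.10). EIF4E1B had the smallest p: 42.8 ± 34.4 (SD, n = 5) FPKM in HLO against 104 ± 91.8 (SD, n = 5) in LLO gave a log2 difference of -1.22 (SE, the standard error, 0.609, limma's p 0.0660, adjusted p 0.828). With 1 sample left out, 1 member had an unadjusted p under 0.05 without HLO replicate 5 (EIF4E1B, 5.85% of all genes), LLO replicate 3 (EIF4E1B, 10.6%) or LLO replicate 4 (EIF3F, 5.88%), and 0 in the other fits; without LLO replicates 2 and 5 the log2 fold change of EIF4E1B was -0.89.

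EIF4E and EIF1 had lower means in HLO than in LLO, but well within their spread. EIF4E was at 331 ± 336 (SD, n = 5) FPKM in HLO against 510.5 ± 388 (SD, n = 5) in LLO, and EIF1 at 163 ± 93.1 (SD, n = 5) and 231 ± 124 (SD, n = 5). EIF3M was at 177 ± 122 (SD, n = 5) and 191 ± 162 (SD, n = 5). Its log2 fold change was 0.12, so on the log scale EIF3M was slightly higher in HLO although its mean FPKM was lower. EIF3F had a higher mean in HLO, with 16.8 ± 5.27 (SD, n = 5) FPKM against 11.01 ± 12.6 (SD, n = 5) in LLO and a log2 difference of 1.37 (SE 0.762, limma's p 0.0944, adjusted p 0.828). This value rested on LLO replicates 2 and 5, since without both it was 0.03, and without LLO replicate 2 alone 0.86; without LLO replicate 4 it was 1.94.

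In medium follicles no member passed the test either. Of 44 members tested, by limma 0 had an unadjusted p under 0.05 for HMO against LMO, against 8.67% of 8390 genes, 0 passed after adjustment (0.0715%), and 0 had groups without overlap (1.70%). With the replicate number as a block 4 had an unadjusted p under 0.05, namely EIF1B, EIF2B4, EIF4B and EIF5 (16.4% of all genes). No member passed after adjustment in that fit. With array weights 12 had an unadjusted p under 0.05 (39.8% of all genes) and 2 passed after adjustment (12.1%). The median log2 fold change was 0.02 over the members and -0.07 over all genes, with 23 members above 0 and 21 below. Leaving out 1 sample at a time took the median of the members from -0.16 (without LMO replicate 3; all genes -0.17) to 0.12 (without HMO replicate 3; all genes -0.01), and it was -0.58 with array weights (all genes -0.32), 0.12 with median-of-ratios factors (all genes 0.01) and -0.03 with quantile normalization (all genes -0.06). EIF4B, a helper of the helicase that was chosen after its values were seen, had the smallest p, with 3.24 ± 0.686 (SD, n = 5) FPKM in HMO against 5.62 ± 2.19 (SD, n = 5) in LMO (log2 fold change -0.60, SE 0.280, p 0.0514, limma's adjusted p 0.578). EIF1B had 56.1 ± 46.1 (SD, n = 5) FPKM in HMO against 21.7 ± 25.3 (SD, n = 5) in LMO, a difference within the SD of HMO. EIF4E had 492 ± 468 (SD, n = 5) FPKM in HMO against 316 ± 273 (SD, n = 5) in LMO, and EIF5B 66.0 ± 11.1 (SD, n = 5) and 99.3 ± 73.3 (SD, n = 5). Both of these rested on LMO replicate 2: without it the log2 fold change went from 0.93 to 0.04 for EIF4E and from -0.37 to -0.01 for EIF5B. With 1 sample left out, 3 members had an unadjusted p under 0.05 without LMO replicate 1 (EIF1B, EIF3A and EIF4B; 9.87% of all genes) or LMO replicate 3 (EIF2B4, EIF3A and EIF4B; 11.6%), and 1 without HMO replicate 2 (EIF4B; 12.6%), HMO replicate 3 (EIF1B; 5.82%) or HMO replicate 5 (EIF3A; 6.46%).

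In small follicles 43 members were tested for HSO against LSO. By limma 0 had an unadjusted p under 0.05, against 4.41% of 8376 genes, 0 passed after adjustment (0.0119%), and 0 had groups without overlap (2.05%). With the replicate number as a block 1 did, EIF4G3 (9.41% of all genes), and also with array weights (8.11%). No member passed after adjustment in these fits. The median log2 fold change was 0.03 over the members and -0.01 over all genes, with 23 above 0 and 20 below. With the replicate number as a block the median of the members was -0.16 (all genes -0.08). Leaving out 1 sample at a time took the median of the members from -0.22 (without HSO replicate 5; all genes -0.12) to 0.28 (without HSO replicate 3; all genes 0.10), and it was 0.13 with array weights (all genes -0.01), 0.08 with median-of-ratios factors (all genes 0.04) and -0.01 with quantile normalization (all genes -0.01). EIF3M had 305 ± 197 (SD, n = 4) FPKM in HSO against 209.8 ± 138 (SD, n = 5) in LSO, and EIF4E 465 ± 367 (SD, n = 4) and 334 ± 326 (SD, n = 5). EIF4EBP2 had the smallest p, with 0.452 ± 0.430 (SD, n = 4) FPKM in HSO against 1.196 ± 0.702 (SD, n = 5) in LSO (log2 fold change -0.58, SE 0.288, p 0.0710, limma's adjusted p 0.880). With 1 sample left out, 1 member had an unadjusted p under 0.05 without HSO replicate 1, LSO replicate 1 or LSO replicate 5 (EIF4EBP2; 1.88%, 2.78% and 7.95% of all genes), without HSO replicate 3 (EIF1B; 5.51%) and without LSO replicate 2 (EIF4G3; 6.66%).

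Over the 3 follicle sizes together, with follicle size as a covariate, EIF3A and EIF5B were lower in the high fertility population at an unadjusted p under 0.05, and no member after adjustment. EIF3A was at 2.90 ± 1.08 (SD, n = 14) FPKM in the high and 4.38 ± 1.91 (SD, n = 15) in the low fertility population. EIF3A in large follicles was at 4.56, 1.86, 1.36, 2.61 and 4.003 FPKM in HLO and 2.46, 3.95, 1.80, 5.77 and 6.89 in LLO. EIF3A in medium follicles was at 2.55, 2.35, 2.0004, 1.87 and 4.58 FPKM in HMO and 2.57, 7.64, 2.45, 6.94 and 4.93 in LMO. EIF3A in small follicles was at 2.56, 2.42, 4.15 and 3.70 FPKM in HSO and 4.61, 3.43, 2.003, 5.18 and 5.11 in LSO. The samples above 5 FPKM were all of the low fertility population, and its other samples, from 1.80 to 4.93 FPKM, overlapped with the 1.36 to 4.58 FPKM of the high one. The log2 fold change of EIF3A was -0.42 (SE 0.190, limma's p 0.0332, adjusted p 0.476). EIF5B was at 64.6 ± 12.5 (SD, n = 14) FPKM in the high and 94.8 ± 53.4 (SD, n = 15) in the low fertility population, with a log2 difference of -0.43 (SE 0.209, p 0.0489, limma's adjusted p 0.5001). These were 2 of 45 members tested at an unadjusted p under 0.05, against 9.99% of 9692 genes, and 0 of 45 after adjustment, against 0.0103%. With array weights 17 members, EIF5B not among them, had an unadjusted p under 0.05 (33.8% of all genes), and 4 passed after adjustment (7.13%). With the replicate number as a block 5 did before adjustment and 0 after, namely EIF3A, EIF4E1B, EIF4E3, EIF4ENIF1 and EIF5B (15.1% of all genes). The median log2 fold change was -0.09 over the members and -0.04 over all genes, with 27 below 0 and 18 above. Leaving out 1 sample at a time took the median of the members from -0.15 (without LLO replicate 3; all genes -0.07) to -0.03 (without HSO replicate 3; all genes -0.01), and it was -0.43 with array weights (all genes -0.16), 0.00 with median-of-ratios factors (all genes 0.02) and -0.08 with quantile normalization (all genes -0.03).

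Neither gene kept an unadjusted p under 0.05 without the samples that stood apart. Without LLO replicates 2 and 5 and LMO replicate 2, the log2 fold change was -0.29 for EIF3A (p 0.141) and -0.16 for EIF5B (p 0.297), and of the members EIF2B4 and EIF4E3, chosen after their values were seen, had an unadjusted p under 0.05 (4.44% of members, 4.89% of all genes). The p of EIF5B was also above 0.05 with median-of-ratios factors (log2 fold change -0.33, p 0.194), quantile normalization (log2 fold change -0.57, p 0.0699) and array weights (log2 fold change -0.24, p 0.116). With 1 sample left out in turn, the p of EIF3A was 0.05 or more in 8 of 29 fits, those without HLO replicates 2 and 3, HMO replicates 3 and 4, LLO replicates 4 and 5 and LMO replicates 2 and 4, and at most 0.0611, while its log2 fold change was from -0.49 to -0.36 over the 29 fits. The p of EIF5B was 0.05 or more in 19 of 29 fits, with the highest, 0.0973, without LMO replicate 2; it stayed under 0.05 without HLO replicate 5, HMO replicate 2, HSO replicate 4, LLO replicates 1 and 3, LMO replicates 1, 3 and 4, and LSO replicates 3 and 4. The log2 fold change of EIF5B was from -0.49 to -0.32 over all 29 fits. The count of members was from 0 (without HLO replicate 2 or 3 or HMO replicate 3 or 4) to 4 (without LLO replicate 3 or LMO replicate 3), and 3 without HMO replicate 1, LLO replicate 1 or LSO replicate 3. It was 1 without HLO replicate 4, HMO replicate 5, HSO replicate 3, LLO replicate 4 or 5, LMO replicate 2, 4 or 5, or LSO replicate 1 or 5. Of all genes, 7.48% (without LMO replicate 2) to 13.8% (without LLO replicate 1) had an unadjusted p under 0.05 in these fits, with 13.3% without LLO replicate 3 and 11.7% without LMO replicate 3.

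A list of other translation genes, regulators and partners of the initiation factors, was tested in the same fits. Of its 38 symbols 36 had a row, 56 rows in all, and 34 rows were tested over the follicle sizes. By limma 3 were lower in the high fertility population at an unadjusted p under 0.05 and 0 higher, 8.82% of those tested against 9.99% of all genes, and 0 passed after adjustment. PABPC1, the poly(A)-binding protein that EIF4G holds, was at 23.4 ± 4.98 (SD, n = 14) FPKM in the high and 34.3 ± 13.95 (SD, n = 15) in the low fertility population (log2 fold change -0.47, SE 0.190, p 0.0188, limma's adjusted p 0.443). DHX29, a helicase for structured leaders, and CPEB4, which binds stored mRNAs, had log2 fold changes of -0.31 and -0.38 with unadjusted p of 0.0358 and 0.04997. At each follicle size alone, 0 of the 31, 31 and 32 rows tested in large, medium and small follicles had an unadjusted p under 0.05, against 4.14%, 8.67% and 4.41% of all genes, and 0 after adjustment. PAIP1, which links PABPC1 to EIF3 and EIF4A, was the most abundant of the list at 1232 ± 1052 (SD, n = 29) FPKM, followed by the elongation factor EEF1A1 at 79.5 ± 49.4 (SD, n = 29) and by PAIP2, which takes PABPC1 off the mRNA, at 74.7 ± 62.4 (SD, n = 29). Of the 56 rows, 10 were listed at 0 in every sample, among them further rows of EEF1A1 and rows of EEF1B2, EEF1G and EEF2. The order of levels within this list is therefore uncertain.

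Between follicle sizes EIF3F had the smallest p. It was at 13.9 ± 9.61 (SD, n = 10) FPKM in large follicles, 22.3 ± 7.73 (SD, n = 10) in medium ones and 23.2 ± 11.5 (SD, n = 9) in small ones. It was the 1 of 45 members that limma's F-test over the follicle sizes gave an unadjusted p under 0.05, with the population as a covariate (p 0.0280), against 1.66% of 9692 genes, and 0 members passed after adjustment (0.00%). EIF3F was also the 1 of 45 with an unadjusted p under 0.05 in the test of whether the difference between populations depends on follicle size (p 0.0301, limma's adjusted p 0.555), against 7.89% of genes, and again 0 passed after adjustment (0.00%). Its log2 fold changes, high minus low, were 1.37, -0.49 and -0.64 in large, medium and small follicles. Over follicle sizes, 0 members had an unadjusted p under 0.05 with median-of-ratios factors (1.60% of all genes) or with quantile normalization (2.02%), and with array weights EIF3F was not among the 7 members (8.43% of all genes). Both tests gave 0 members without the samples that stood apart, against 0.774% and 6.56% of all genes. With 1 sample left out, EIF3F no longer had an unadjusted p under 0.05 over follicle sizes without LLO replicate 2 or 5, nor in the test of dependence on follicle size without those, HLO replicate 1 or HLO replicate 4. The first test gave 0 members without LLO replicate 2 or 5 (0.880% and 0.964% of all genes) and 2 without LLO replicate 4 or LMO replicate 5 (5.10% and 1.62%). The test of dependence gave 0 without HLO replicate 4 or LLO replicate 2 or 5, 5 without LLO replicate 4 (11.1% of members, 11.6% of all genes), 3 without HMO replicate 2 (9.88% of all genes), and 2 without HLO replicate 3, LLO replicate 1 or 3, or LMO replicate 1 or 3. In these fits of the dependence 6.15% to 11.6% of all genes had an unadjusted p under 0.05.

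More members differed by the replicate number in the sample name, for which the labels give no meaning, than by population or follicle size; this comparison was chosen after the values were seen. EIF4E was at 612 ± 333 (SD, n = 6) FPKM in samples numbered 1, 63.8 ± 39.0 (SD, n = 5) in those numbered 2, 111 ± 32.5 (SD, n = 6) in number 3, 434 ± 294 (SD, n = 6) in number 4 and 753 ± 182 (SD, n = 6) in number 5. Its samples numbered 2 and 3 lay between 12.9 and 149 FPKM and those numbered 5 between 552 and 988, with no overlap. For EIF4E samples numbered 4 split by population, at 63.3, 222 and 249.6 FPKM in HLO, HMO and HSO and 656, 617 and 798.6 in LLO, LMO and LSO. The summed FPKM of all members in these samples was 874, 1473 and 1665 against 3157, 2718 and 2943. Their genes above 0.5 FPKM numbered 7251, 7532 and 7980 against 8689, 8318 and 8502. Not all members split this way: EIF1 was at 206 and 158 FPKM in HMO and HSO against 86.2 and 85.5 in LMO and LSO. EIF1B was at 119 and 44.1 FPKM against 9.77 and 8.18 in the same samples. The share of all genes with such a split was not computed. In limma's F-test over the 5 numbers with the 6 groups as covariate, 33 of 45 members had an unadjusted p under 0.05, against 58.0% of 9692 genes, and 30 of 45 an adjusted p under 0.05, against 50.5%. The share was 66.7% of the members tested, so that a large part of all genes differed by number along with the initiation factors. Without the samples that stood apart 33 members had an unadjusted p under 0.05 (55.1% of all genes) and 31 an adjusted one (47.1%). At the unadjusted p, EIF1AX was then lost and the second EIF2S2 row was gained.

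By factor, the adjusted test was passed by 3 of 5 EIF1 rows, 7 of 10 of EIF2, 8 of 12 of EIF3, 8 of 13 of EIF4, 3 of 4 of EIF5 and by EIF6. The helicase EIF4A3 had 41.3 ± 18.1 (SD, n = 6), 10.04 ± 6.39 (SD, n = 5), 6.09 ± 1.05 (SD, n = 6), 25.9 ± 19.7 (SD, n = 6) and 68.3 ± 31.2 (SD, n = 6) FPKM in numbers 1 to 5 (limma's adjusted p 3.95e-05), and EIF5A 8.27 ± 1.63 (SD, n = 6), 1.032 ± 0.766 (SD, n = 5), 0.879 ± 0.494 (SD, n = 6), 3.42 ± 2.12 (SD, n = 6) and 6.49 ± 2.14 (SD, n = 6) (adjusted p 3.06e-05). EIF4E and EIF3I had adjusted p of 4.95e-05 and 7.07e-05. EIF1 followed another order, with 315 ± 55.9 (SD, n = 6) FPKM in number 1, 77.2 ± 15.3 (SD, n = 6) in number 3 and 181 ± 67.9 (SD, n = 6) in number 5 (adjusted p 0.000115). EIF5 had its highest mean in number 2, 108 ± 39.4 (SD, n = 5) FPKM, against 34.2 ± 13.7 (SD, n = 6) in number 1 and 40.9 ± 13.97 (SD, n = 6) in number 5 (adjusted p 0.00230). EIF5B, EIF4G3, EIF3F and EIF3K were among those that did not pass.

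Of the 35 members above 0.5 FPKM in all samples, 21 were higher in number 5 than in number 3 in each of the 6 groups, EIF5 and EIF3F were lower in each, and 12 were mixed. Over all 4575 genes above 0.5 FPKM in all samples, 47.6 percent were higher in each group and 8.72 percent lower. The size of this depended on scaling. With median-of-ratios factors 14 members were higher and 5 lower in each group, against 23.8 and 26.5 percent of all genes. With quantile normalization 13 members were higher and 5 lower, against 22.2 and 25.4 percent of all genes. Both scalings set the samples to a common level, so the split over all genes under them cannot show whether genes in general were higher in number 5. The part of the scaling in this split was not tested. EIF4E, EIF4A3, EIF3I and EIF2B1 were higher in number 5 and EIF5 and EIF3F lower in all groups under each of these scalings. EIF2B3 turned over: it was higher in number 5 in all groups as deposited, but lower in all groups under both other scalings.

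Other measures moved with the number as well. The summed FPKM of the initiation factors was 2885 ± 660.4 (SD, n = 6), 1185 ± 184 (SD, n = 5), 940.0 ± 61.0 (SD, n = 6), 2138 ± 926 (SD, n = 6) and 2970.1 ± 504 (SD, n = 6) in numbers 1 to 5. In the same order, the genes above 0.5 FPKM numbered 8263 ± 173 (SD, n = 6), 7283 ± 367 (SD, n = 5), 7204 ± 277 (SD, n = 6), 8045 ± 565 (SD, n = 6) and 8198 ± 269 (SD, n = 6). The summed oocyte markers were at 2942 ± 429.9 (SD, n = 6), 1540.4 ± 832 (SD, n = 5), 1281 ± 254 (SD, n = 6), 2973 ± 1711 (SD, n = 6) and 4260.3 ± 2642 (SD, n = 6) FPKM. These measures, like the summed FPKM of the initiation factors, had their lowest means in numbers 2 and 3. The theca and stroma list, mostly DCN, was at 13.4 ± 5.49 (SD, n = 6), 6.72 ± 2.43 (SD, n = 5), 5.78 ± 0.748 (SD, n = 6), 9.27 ± 4.33 (SD, n = 6) and 14.7 ± 2.31 (SD, n = 6) FPKM, and the granulosa list at 0.702 ± 0.168 (SD, n = 6), 0.837 ± 0.347 (SD, n = 5), 0.935 ± 0.907 (SD, n = 6), 1.38 ± 1.23 (SD, n = 6) and 3.03 ± 3.47 (SD, n = 6). The mitochondrially encoded genes summed to 652 ± 562 (SD, n = 6), 468 ± 173 (SD, n = 5), 2608 ± 2589 (SD, n = 6), 742 ± 977 (SD, n = 6) and 819.7 ± 819 (SD, n = 6) FPKM, with the highest mean in number 3, where HSO, LMO and LSO were at 4209 FPKM or more and the other 3 samples at 447 or less. Their part in the differences between numbers was not tested.

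**Figure D3:**
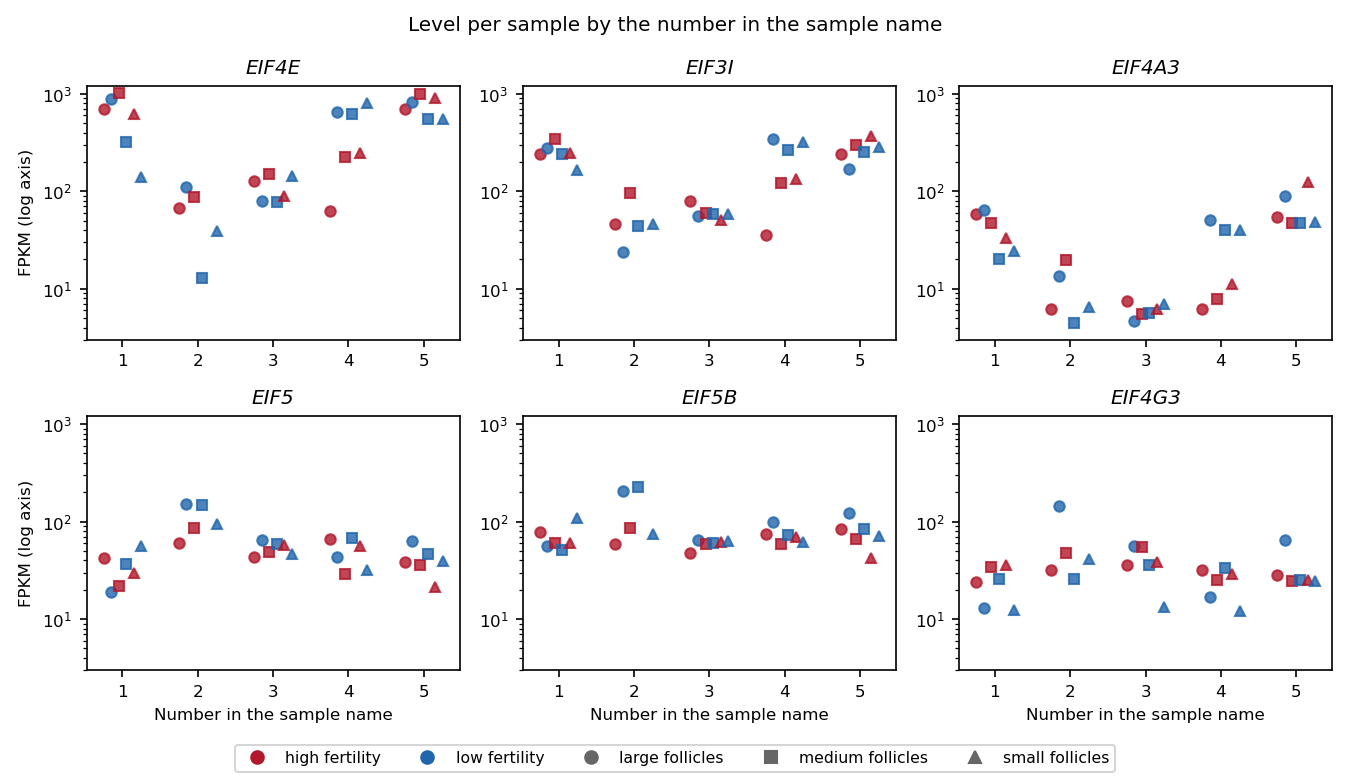
FPKM per sample on a log axis against the number in the sample name for EIF4E, EIF3I, EIF4A3, EIF5, EIF5B and EIF4G3, with colour for the population and shape for follicle size. EIF4E lay at 149 FPKM or less in all samples numbered 2 and 3 and at 552 FPKM or more in all samples numbered 5.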

How the data were processed

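The authors kept uniquely mapped reads, used picard to drop duplicates, and deposited FPKM from Cufflinks with the Ensembl annotation; the aligner and genome build are not given in the sources used here. Samples were matched to columns through their names, and 1 column, named as replicate 2 of HSO, was not used because no deposited sample matches it. Tests were run with limma 3.58.1 in R 4.3.3 (with a trend, on log2 of FPKM + 1, for genes that exceeded 0.5 FPKM in 4 or more samples) and tested on simulated data. Summaries and figures used Python 3.11.15, numpy 2.4.6, pandas 2.3.3 and matplotlib 3.10.9. Members and lists were chosen with earlier results of these data known. Named genes are the 2 members of highest mean per factor number, those with an unadjusted p under 0.05 between the populations, those whose groups do not overlap, those above 0.5 FPKM in no sample, and those of the paralog ratios. Other members with values were chosen after the values were seen. Alternatives were array weights, quantile normalization, median-of-ratios factors, a pseudocount of 0.1, no filter or a filter at 1 FPKM, the replicate number as a block, and each sample left out. The replicate-number test, 1 row per symbol and leaving out the 3 samples least like the others were added after the data were seen.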

Additional observations from a re-analysis of the deposited data

Results flagged for a closer look

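A sample far from the others of its group, by Dixon's ratio of gap to range at its 95% limit, was looked for in 138 groups of samples (22 genes and the summed FPKM of all initiation factors, in 6 groups each). It was found in 9 of them. The limit is set to pass about 1 in 20 groups of independent, normally distributed values. FPKM were used without a log and the genes share their samples, so the 9 cannot be set against that rate. The share over all genes was not computed. For EIF1 it was HLO replicate 1 at 323 FPKM, the nearest other sample of its group being at 161. For EIF1B it was LMO replicate 1 at 66.7 FPKM, the nearest other sample of its group being at 12.4. For EIF4E1B it was HLO replicate 5 at 102 FPKM, the nearest other sample of its group being at 42.8, and also LLO replicate 5 at 266 FPKM, the nearest other sample of its group being at 83.2. For EIF5B it was LMO replicate 2 at 229 FPKM, the nearest other sample of its group being at 83.4, and also LSO replicate 1 at 108 FPKM, the nearest other sample of its group being at 74.0. For EIF3A it was HMO replicate 5 at 4.58 FPKM, the nearest other sample of its group being at 2.55. For EIF4A1 it was the lowest sample of its group, LMO replicate 3 at 13.2 FPKM, the nearest other sample of its group being at 40.6. For EIF4G2 it was LSO replicate 1 at 75.6 FPKM, the nearest other sample of its group being at 40.6. Each other sample named was the highest of its group.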

How the results depend on the processing

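Counts are of members at an unadjusted p under 0.05 unless called adjusted, with the share of all genes in the same fit beside them, and the cause of each difference was not tested. With array weights the count was 7 of 43 in large follicles (16.3%, all genes 16.5%), 12 of 44 in medium (27.3%, all genes 39.8%; 2 adjusted, 4.55% against 12.1%) and 1 of 43 in small ones (2.33%, all genes 8.11%). It was 17 of 45 over the follicle sizes (37.8%, all genes 33.8%; 4 adjusted, 8.89% against 7.13%), 7 of 45 between follicle sizes (EIF3F not among them; 15.6%, all genes 8.43%) and 2 of 45 in the test of dependence on follicle size (4.44%, all genes 16.7%). Without a filter it was 2 in medium (all genes 8.13%) and 1 in small follicles (4.63%), 4 over the follicle sizes (7.98%) and 3 for the dependence (6.97%). A pseudocount of 0.1 gave 1 in medium follicles (8.65%) and 2 for the dependence (8.39%), and a limit of 1 FPKM gave 1 in medium follicles (8.41%). Median-of-ratios factors gave 1 (EIF4E1B) in large follicles (all genes 5.95%), 0 between follicle sizes (1.60%) and 3 for the dependence (all genes 9.67%). Over the follicle sizes they gave 2, with EIF1AX in place of EIF5B (all genes 10.5%). Quantile normalization gave 3 over the follicle sizes (EIF3A, EIF4E3 and EIF4ENIF1; all genes 10.4%), 0 between follicle sizes (2.02%) and 3 for the dependence (all genes 10.1%). Without the 3 samples least like the others, both of the last tests gave 0 (all genes 0.774% and 6.56%), and over the follicle sizes 2 others were called (4.89%). Leaving out each sample in turn gave 0 to 1 in large (all genes 1.88% to 10.6%), 0 to 3 in medium (4.82% to 12.6%) and 0 to 1 in small follicles (1.88% to 7.95%), 0 to 4 over the follicle sizes (7.48% to 13.8%), 0 to 2 between follicle sizes (0.880% to 5.10%) and 0 to 5 for the dependence (6.15% to 11.6%). Using 1 row per symbol moved none of these counts. The replicate-number test, for which 1 row per symbol was not run and a block on the number cannot be, gave 30 to 40 members under the alternatives run (29 to 39 adjusted), against 38.1% to 81.3% of all genes (27.3% to 79.5% adjusted). The log2 fold changes of EIF3A and EIF5B over the follicle sizes, the only 2 called between the populations, kept their sign under each alternative. The signs of members called only under an alternative were not compared. A replicate block, with the number as the block, gave 2 of 43 in large follicles (EIF3F and EIF4E1B; 4.65%, all genes 8.21%), 4 of 44 in medium (EIF1B, EIF2B4, EIF4B and EIF5; 9.09%, all genes 16.4%) and 1 of 43 in small ones (EIF4G3; 2.33%, all genes 9.41%). It gave 5 of 45 over the follicle sizes (11.1%, all genes 15.1%), 1 between follicle sizes (2.22%, all genes 2.86%) and 3 for the dependence (6.67%, all genes 14.5%). Samples of 1 number share a good deal but not throughout: their deviations from the group means correlated over 0.1 across genes in 10 of 14 pairs of high and low fertility samples, from -0.481 to 0.709, with all 3 pairs of number 4 below 0, and 21 of 29 samples correlated best, among samples of other groups, with one of their own number. Since neither the labels nor every pair tie samples of 1 number together, the block was kept as an alternative.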

Other observations

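A pair of gene rows without an EIF symbol are described as subunits of EIF3 and were not counted among the members. LOC102182187 (ENSCHIG00000024795), described as subunit C, a core subunit, was at 9.88 ± 4.63 FPKM (SD, n = 29), from 4.54 in HSO replicate 1 to 26.0 in LLO replicate 2. LOC102172503 (ENSCHIG00000013441), described as subunit F, was at 1.51 ± 2.47 FPKM (SD, n = 29) and listed at 0 in LLO replicate 2, with 12.7 in LSO replicate 1.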
